A study of Mus musculus with 9 samples.

Results

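A set of 9 B cell receptor and identity genes was followed through RNA sequencing of whole mouse lung: Cd79a, Cd79b, Cd22, Cr2, Ms4a1, Fcmr, Blk, Pax5 and Ebf1. They were chosen by name as parts or partners of the B cell receptor and as factors of B cell identity, and make up 9 of the 55359 genes in the count table. The choice was made with earlier results of these data known, so counts over these genes are descriptions. The lungs came from male C57BL/6J mice aged 6 to 8 weeks, in a study of 60 mice with 20 in each group. Control mice received saline into the trachea, Silica mice received 5 mg of silica in saline by the same route, and Silica + ATL-III mice received the silica together with 30 mg/kg per day of atractylenolide III, a plant sesquiterpenoid lactone, into the peritoneum. Lungs were taken on day 28, and 3 libraries were sequenced per group. The labels name neither a group given ATL-III alone nor an injected vehicle in the other groups. Any comparison with Silica + ATL-III lungs therefore holds the compound and its injection together.

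B cells recognise antigen with a membrane immunoglobulin that has almost no cytoplasmic part of its own. It signals through a pair of chains, CD79A and CD79B, whose tyrosine motifs are phosphorylated by Src-family kinases when antigen binds. Coreceptors set the strength of that signal: complement receptor CR2 raises it, and CD22 lowers it through a phosphatase. EBF1 and PAX5 are the transcription factors that switch on and hold the B cell programme, the genes of the receptor among their targets. In the lung, resting B cells are a small part of the leukocytes, and inhaled particles such as silica can lead to lymphoid aggregates that hold many of them.

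Depth was even, at 16047175 to 17792481 counted reads per library, and alveolar epithelial markers, which define lung tissue, summed to 23401 to 35342 FPKM. No statement in the labels ties a library to a single mouse, so the p-values below measure the spread between these libraries, which may be partly technical. FPKM (fragments per kilobase of exon, scaled to the library total) are the authors' values and compare levels between genes per length. Fold changes come from the quasi-likelihood test of edgeR, fitted to the read counts of 15459 genes with at least 1 FPKM in at least 3 libraries. The call threshold was an adjusted p (Benjamini-Hochberg, over all genes tested) under 0.05, and an error after a log2 fold change is its standard error. Of the 9 B cell genes, 8 passed that filter. Cr2 did not, and its tests come from the same model on 18268 genes kept by edgeR's own filter. Because 5 of the 8 that passed (Cd22, Fcmr, Blk, Pax5 and Ebf1) reached 1 FPKM in no Silica + ATL-III library, they entered through the other groups, and a count over those 8 is a description only. In whole lung, fewer B cells and less RNA of these genes per B cell cannot be told apart. Cr2 and Ebf1 are also expressed in other cells, whose part was not tested.

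RefSeq promoter windows (GRCm38.p6) were found for 6 of the 9 genes: Cd79a, Cd22, Cr2, Fcmr, Pax5 and Ebf1, the last with a pair of start sites, which gave 7 windows. Cd79b, Ms4a1 and Blk had no entry. The stretches below are shown because these genes fell together in the lungs of 1 group, and they carry the letters searched for. Each is written 5′ to 3′ on the gene's strand, without bases in annotated exons, and capitals mark a match to a motif on either strand. The Cd79a stretch (chr7:24897247-24897380, plus strand) ends where the annotated gene begins and holds an E-box, CAGGTG. The Cd22 stretch (chr7:30879029-30879176, minus strand) lies in an intron of the longer gene model, directly before the RefSeq start, and holds the palindrome searched for EBF factors, TCCC and GGGA with any 2 bases between. The Cr2 stretch (chr1:195176720-195176969, minus strand) is the whole window and holds an NF-kB motif, GGGA and CC with any 4 bases between, followed by an E-box read on the other strand.
Cd79a: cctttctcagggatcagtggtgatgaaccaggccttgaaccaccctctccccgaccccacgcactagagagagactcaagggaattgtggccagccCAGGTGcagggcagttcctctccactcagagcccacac
Cd22: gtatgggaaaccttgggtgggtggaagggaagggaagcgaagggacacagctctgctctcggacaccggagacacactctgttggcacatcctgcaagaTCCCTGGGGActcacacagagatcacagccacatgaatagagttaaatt
Cr2: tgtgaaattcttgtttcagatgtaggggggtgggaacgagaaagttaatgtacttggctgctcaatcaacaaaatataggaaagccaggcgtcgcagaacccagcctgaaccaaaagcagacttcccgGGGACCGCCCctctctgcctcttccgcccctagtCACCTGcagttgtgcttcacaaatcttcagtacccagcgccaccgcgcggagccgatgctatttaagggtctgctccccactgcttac

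Over the 250 bases before the start, the EBF palindrome was found in 1 of the 7 windows (Cd22, 49 to 40 bases before the start) and in 0.779% of 32851 mouse promoters. The E-box was found in 3 windows (Cd79a, Cd22 and Cr2) against 17.2% of all promoters, and the NF-kB motif in 3 (Cr2, Fcmr and 1 of the Ebf1 windows) against 17.6%. An Ets core, AGGAAG, was found in 1 window, that of Cd79a, at 55 to 50 bases before the start, and in 29.5% of all promoters. Neither the octamer ATGCAAAT, which is in 1.6% of all promoters, nor the TATA box TATAAA, which is in 12.4%, was found in a window of these genes. A match describes the letters only, and so does its absence.

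All 9 genes were lower in lungs given silica with ATL-III than in lungs given silica alone, by 2.08-fold (Ebf1) to 5.76-fold (Pax5). No library of the 3 Silica + ATL-III lungs reached the lowest Silica library for any of them. Against saline controls, 8 of the 9 were lower without overlap, and Fcmr was the exception. No change with silica alone was detected: for every one of the 9 genes the Silica and Control libraries overlapped and the test did not pass.

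**Figure D1:**
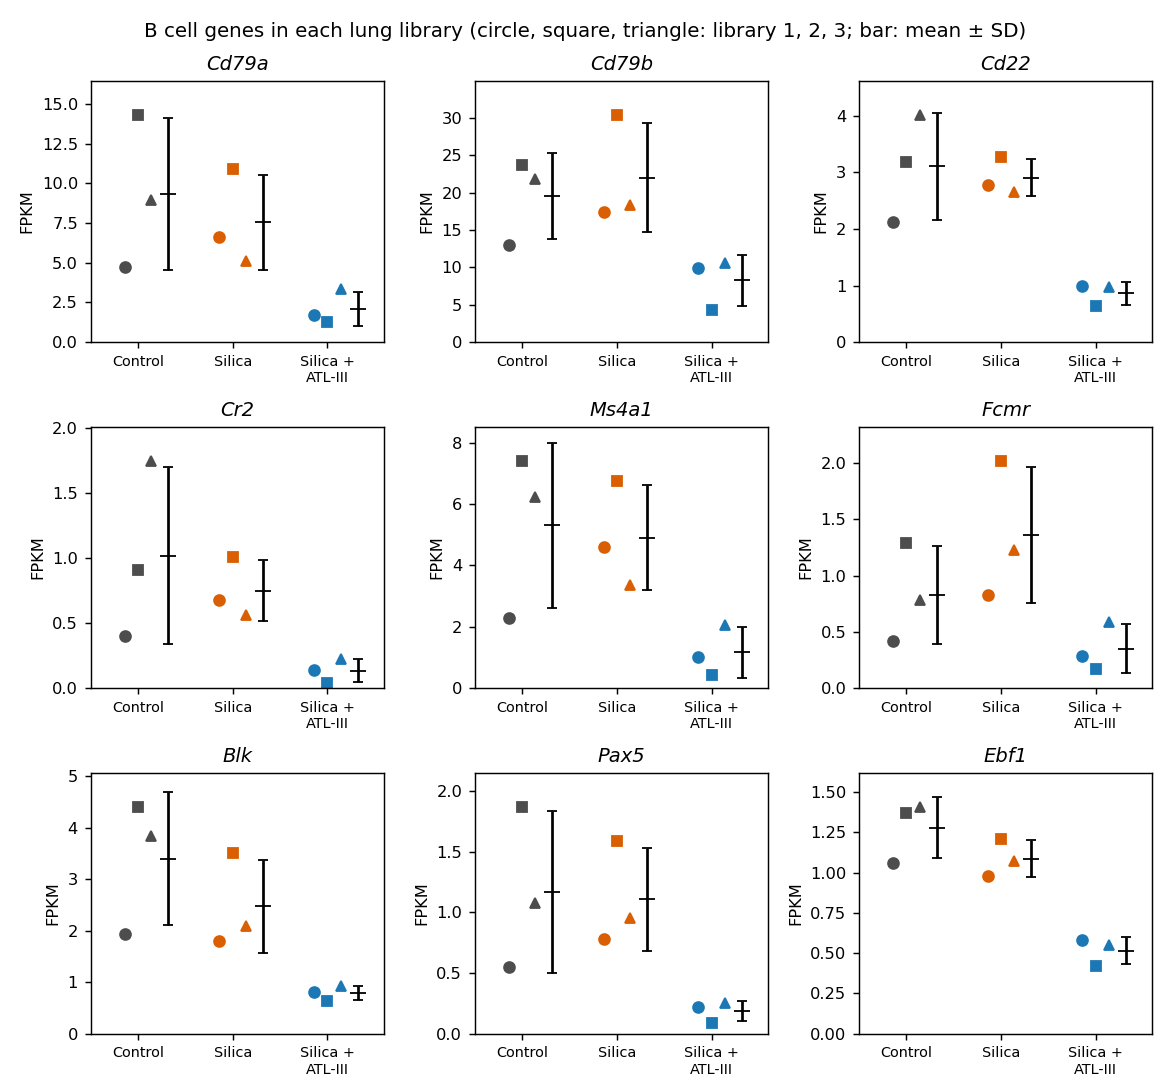
FPKM (linear axis from 0, with its own range for each gene) of the 9 genes in the 9 libraries; each point is 1 library, its colour the group and its shape the library number, and bars give the group mean ± SD (n = 3). The 3 Silica + ATL-III libraries lie below all Silica libraries for each gene, while Control and Silica libraries overlap.

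Cd79a (ENSMUSG00000003379, GRCm38 chr7:24897381-24902197, plus strand) encodes the alpha chain of the signalling pair. Its FPKM was 4.72, 14.29 and 8.94 in the Control libraries, 6.59, 10.90 and 5.13 in the Silica libraries, and 1.69, 1.27 and 3.32 in the Silica + ATL-III libraries. Every treated library lay below every other library, and Control 1 and Silica 3 were the lowest of the rest. Against Silica, the log2 fold change was −1.82 ± 0.44 (edgeR adjusted p = 0.0134), and against Control it was −2.03 ± 0.44 (adjusted p = 0.00864).

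Cd79b (ENSMUSG00000040592, chr11:106311341-106314762, minus strand), the beta chain, was the most abundant of the 9 per length. It measured 12.94, 23.73 and 21.87 FPKM in Control, 17.35, 30.38 and 18.30 in Silica, and 9.95, 4.30 and 10.53 in Silica + ATL-III lungs. The treated libraries were again the 3 lowest, although the highest of them came close to Control 1. The log2 fold change was −1.38 ± 0.33 against Silica (edgeR adjusted p = 0.0115) and −1.12 ± 0.33 against Control (adjusted p = 0.0371).

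Among the coreceptors, Cd22 (ENSMUSG00000030577, chr7:30865402-30880342, minus strand), a sialic acid binding lectin that dampens receptor signals, had the tightest groups. Its FPKM was 2.13, 3.18 and 4.01 in Control, 2.78, 3.27 and 2.66 in Silica, and 0.99, 0.63 and 0.97 in Silica + ATL-III libraries. Silica and Control means were 2.90 ± 0.323 and 3.11 ± 0.942 (SD, n = 3 each), and the treated mean was 0.863 ± 0.202. The log2 fold change was −1.73 ± 0.24 both against Silica (edgeR adjusted p = 0.000709) and against Control (adjusted p = 0.000598).

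Cr2 (ENSMUSG00000026616, chr1:195136811-195176716, minus strand), the receptor for complement fragments on antigen, is also made by follicular dendritic cells. It was scarce, at 0.40, 0.91 and 1.75 FPKM in Control, 0.68, 1.01 and 0.56 in Silica, and 0.14, 0.04 and 0.22 in Silica + ATL-III libraries, which rest on 5 to 231 reads. All treated libraries were below all others, with Control 3 standing highest. In the fit on 18268 genes the log2 fold change was −2.44 ± 0.57 against Silica (edgeR adjusted p = 0.0117) and −2.76 ± 0.57 against Control (adjusted p = 0.0064).

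Of the other surface proteins, Ms4a1 (ENSMUSG00000024673, chr19:11249675-11266241, minus strand) encodes CD20, a membrane protein of mature B cells and the target of B cell depleting antibodies. Its FPKM was 2.28, 7.41 and 6.22 in Control, 4.60, 6.74 and 3.36 in Silica, and 1.01, 0.41 and 2.06 in Silica + ATL-III libraries. The highest treated library stood just under Control 1. Its log2 fold change was −2.05 ± 0.51 against Silica (edgeR adjusted p = 0.0157) and −2.07 ± 0.51 against Control (adjusted p = 0.0174).

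Fcmr (ENSMUSG00000042474, chr1:130865669-130880791, plus strand), the receptor for the constant part of IgM, was the only 1 of the 9 not called against Control. It measured 0.42, 1.29 and 0.78 FPKM in Control, 0.83, 2.02 and 1.23 in Silica, and 0.28, 0.17 and 0.59 in Silica + ATL-III libraries, on 5 to 59 reads. The treated libraries lay below all Silica libraries but reached above Control 1. The log2 fold change was −1.92 ± 0.53 against Silica (edgeR adjusted p = 0.0242) and −1.12 ± 0.55 against Control, which was not called (adjusted p = 0.196). Cd79b, with a smaller standard error, was called at the same size against Control (−1.12 ± 0.33).

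Blk (ENSMUSG00000014453, chr14:63372836-63417037, minus strand) encodes the Src-family kinase of B cells that can phosphorylate the CD79 chains. Its FPKM was 1.94, 4.41 and 3.84 in Control, 1.81, 3.51 and 2.10 in Silica, and 0.82, 0.64 and 0.92 in Silica + ATL-III libraries. The treated libraries lay close together and well below the lowest Silica library. The log2 fold change was −1.61 ± 0.34 against Silica (edgeR adjusted p = 0.00663) and −1.97 ± 0.34 against Control (adjusted p = 0.00215).

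Of the transcription factors, Pax5 (ENSMUSG00000014030, chr4:44524757-44710487, minus strand), which commits progenitors to the B lineage, had the largest fold change among the 8 genes of the 15459-gene fit. It measured 0.55, 1.87 and 1.08 FPKM in Control, 0.78, 1.59 and 0.95 in Silica, and 0.22, 0.09 and 0.25 in Silica + ATL-III libraries. The highest treated library was under the lowest library of either other group. Its log2 fold change was −2.53 ± 0.47 against Silica (edgeR adjusted p = 0.00359) and −2.51 ± 0.47 against Control (adjusted p = 0.00389).

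Ebf1 (ENSMUSG00000057098, chr11:44617317-45008091, plus strand), which acts upstream of Pax5 and is also expressed in adipocyte precursors and other stromal cells, had the smallest fold change of the 9 against Silica. Its FPKM was 1.06, 1.37 and 1.41 in Control, 0.98, 1.21 and 1.07 in Silica, and 0.58, 0.42 and 0.55 in Silica + ATL-III libraries. The groups were tight and the treated libraries lay apart. The log2 fold change was −1.06 ± 0.18 against Silica (edgeR adjusted p = 0.00212) and −1.19 ± 0.18 against Control (adjusted p = 0.000916). Markers of pericytes and fibroblasts had 5 of 11 tested members called lower and 1 higher against Silica, where 10.0% and 11.2% of all genes were. Their summed levels were 104 to 113 FPKM in treated and 126 to 137 in Silica lungs. The part of these cells in the Ebf1 result was not tested.

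In the comparison of Silica + ATL-III with Silica, the test called 8 of the 8 tested genes lower, where 10.0% of all 15459 genes were called lower. Cr2 was called lower too, in a fit that called 8.94% of its 18268 genes lower. Complete separation with the treated libraries below held for 9 of 9, against 19.6% of all tested genes. The median log2 fold change of the 8 was −1.77, beside −0.000 for all genes. Leaving out single libraries ended some calls. Cd79a lost its call without Silica + ATL-III 1 (edgeR adjusted p = 0.0505) or 2 (0.0601), and Ms4a1 without Silica + ATL-III 1 (0.0546). Fcmr lost its call without Silica 2 (0.0672), Silica 3 (0.0547), Silica + ATL-III 1 (0.0767) or 2 (0.093). Cd79b, Cd22, Blk, Pax5 and Ebf1 kept theirs without any 1 library, as did Cr2, with adjusted p up to 0.0443. On the log2(FPKM + 0.5) scale, which understates the change of low genes, the difference was −1.20 for Pax5, −1.12 for Fcmr and −0.64 for Ebf1, all called by limma.

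**Figure D2:**
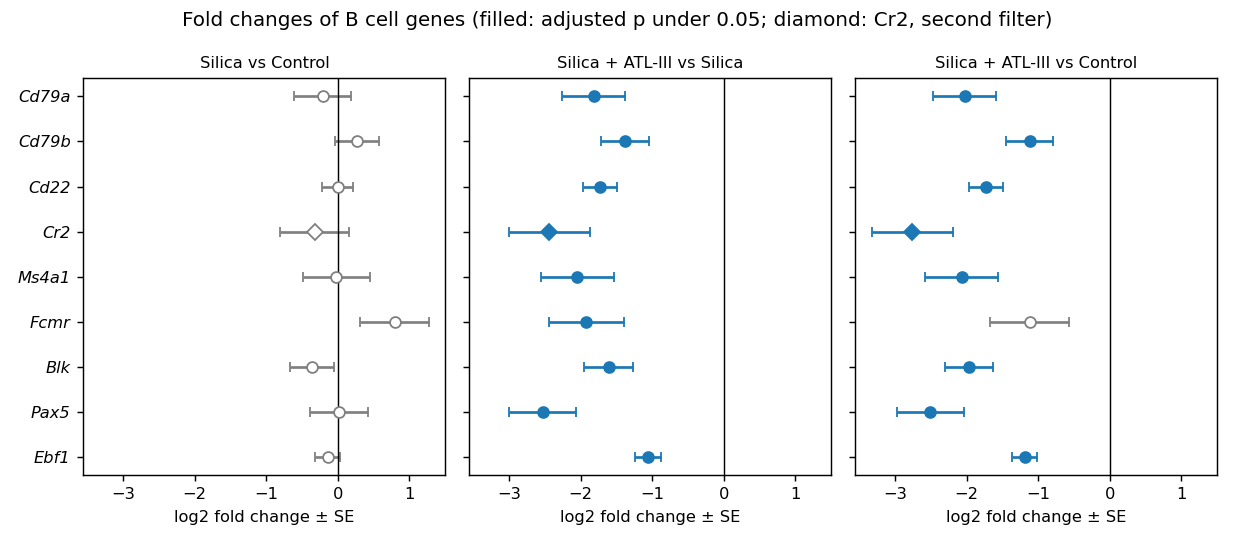
Log2 fold change (edgeR, bars show the standard error) of the 9 genes in the 3 comparisons; filled points have an adjusted p under 0.05, and the diamond is Cr2, from the fit with edgeR's own filter. All Silica + ATL-III vs Silica values lie between −2.53 and −1.06, and those for Silica vs Control between −0.36 and 0.80.

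Against Control, 7 of the 8 tested genes were called lower in Silica + ATL-III lungs, where 6.71% of all genes were, and Cr2 was called in a fit that called 5.68% lower. Separation held for 8 of the 9, against 30.6% of all genes. The median log2 fold change was −1.85, beside −0.010 for all genes. This comparison shares its treated libraries with the one above, so its values stand beside those and are no independent repeat. Cd79b lost its call without Control 2 (edgeR adjusted p = 0.121), Control 3 (0.111), Silica 3 (0.0544), Silica + ATL-III 1 (0.0569) or 2 (0.0916). Ms4a1 lost its call without Control 2 (0.0629), Control 3 (0.0541) or Silica + ATL-III 1 (0.0638). Calls for Cd79a, Cd22, Blk, Pax5, Ebf1 and Cr2 held in each of these fits. For Pax5 the difference was −1.21 on the log2(FPKM + 0.5) scale.

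No difference between Silica and Control lungs was called for any of the 9 genes. The test called 0 of the 8, against 16.9% of all genes called in either direction (7.81% lower and 9.11% higher), and none had an unadjusted p under 0.05 by edgeR. DESeq2 and limma called 0 as well. The libraries of both groups overlapped for 9 of 9 genes, while all 3 Silica libraries were lower for 28.9% of all genes and higher for 14.4%. Fcmr had the largest difference, 0.80 ± 0.48 on the log2 scale (edgeR adjusted p = 0.26), with Silica 2 the highest of its 6 libraries. Blk stood at −0.36 ± 0.31 (adjusted p = 0.424) and Cd79b at 0.27 ± 0.31 (0.574). For Cd22 the value was 0.00 ± 0.22 (0.997), and for Pax5 0.02 ± 0.41 (0.985). Cr2 was at −0.32 ± 0.48 (adjusted p = 0.68, in its own fit). Standard errors of 0.17 to 0.48 mean that changes of a modest size could not be detected with 3 libraries a group. Where Control 1 was left out the Silica values were lower for each gene, at −0.52 for Cd79a, −0.64 for Blk and 0.48 for Fcmr, none called.

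Within groups the genes moved as a block. Control 1 was the lowest of the 3 controls for 9 of 9 genes, Silica 2 the highest of its group for 9 of 9, and Silica + ATL-III 2 the lowest of its group for 9 of 9. Their summed FPKM was 26.4, 58.5 and 49.9 in Control, 36.4, 60.6 and 35.4 in Silica, and 15.7, 7.97 and 19.4 in Silica + ATL-III libraries. Across the 36 pairs of genes, Pearson's r of log2(FPKM + 0.5) over the 9 libraries ran from 0.730 to 0.983 (median 0.925). With the group means removed it ran from 0.564 to 0.958 (median 0.833), with 0 pairs below 0. These libraries share their total and their tissue sample, so the values describe this set of 9 libraries.

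In Control lungs the order of mean FPKM was Cd79b (19.5 ± 5.77, SD, n = 3), Cd79a (9.32 ± 4.80), Ms4a1 (5.30 ± 2.69), Blk (3.40 ± 1.29), Cd22 (3.11 ± 0.942), Ebf1 (1.28 ± 0.192), Pax5 (1.17 ± 0.664), Cr2 (1.02 ± 0.682) and Fcmr (0.83 ± 0.437). Only the steps from Cd79b to Cd79a and from Cd22 to Ebf1 were larger than the SD of both neighbours. In Silica + ATL-III lungs the order ended with Ebf1 (0.517 ± 0.085), Fcmr (0.347 ± 0.218), Pax5 (0.187 ± 0.085) and Cr2 (0.133 ± 0.0902). Ebf1 stood above Pax5 in each library except Control 2 and Silica 2.

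Levels were also set relative to Cd79a. On the log2 scale, with 0.1 FPKM added to each level, Fcmr relative to Cd79a averaged −3.32 ± 0.09 in Control, −2.40 ± 0.44 in Silica and −2.30 ± 0.05 in Silica + ATL-III libraries (SD, n = 3). Its Silica minus Control difference was 0.92 and its Silica + ATL-III minus Control difference 1.02, both without overlap and both at an exact two-sided permutation p of 0.1, the smallest that 3 against 3 can give. Relative to Cd79b in place of Cd79a, the same differences were 0.51 and 0.23. For Cd79b relative to Cd79a, Silica + ATL-III exceeded Control by 0.79 (exact p = 0.1), and for Ebf1 it exceeded Silica by 0.89 (exact p = 0.2), with means of −1.73 ± 0.58 and −2.62 ± 0.45. Cr2 differed from Silica by −0.07 (exact p = 0.8) and Pax5 by −0.23 (exact p = 0.5). Over the 24 ratios tested the smallest adjusted p was 0.655, but with 3 libraries a group no ratio could pass 0.05, so these values describe the proportions and do not show whether they were kept.

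**Figure D3:**
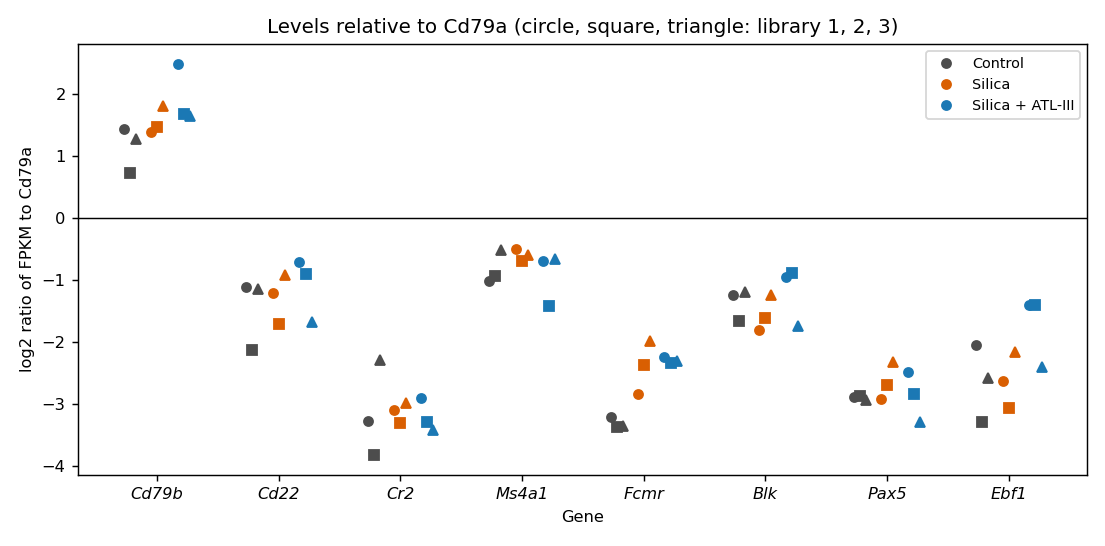
Log2 ratio of FPKM to that of Cd79a, with 0.1 FPKM added to each, for 8 genes in the 9 libraries; colour gives the group and shape the library number. The 3 Control points of Fcmr (mean −3.32) lie below its other points, and the Ebf1 mean is highest in Silica + ATL-III libraries (−1.73), whose points overlap those of the other groups.

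The genes whose levels were most like the mean of the 9 over the 9 libraries, by Pearson's r with the mean z-score, were mostly other B cell genes. Bank1, a B cell scaffold protein with ankyrin repeats, led (r = 0.991), followed by H2-Ob (0.981), which regulates antigen loading in B cells, Btla (0.979), Fcer2a (0.978), the low-affinity IgE receptor, and Pou2af1 (0.969), a coactivator of octamer factors. Gpr174 (0.967), a G protein-coupled receptor of lymphocytes, and Gramd3 (0.962) followed. A pair of immunoglobulin variable segments ranked above Gramd3 and is not named. Gramd3 had a log2 fold change of only −0.25 ± 0.11 against Silica (edgeR adjusted p = 0.138), and Gpr174 of −2.06 ± 0.36. These correlations are descriptions over libraries that fall into separate groups.

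**Figure D4:**
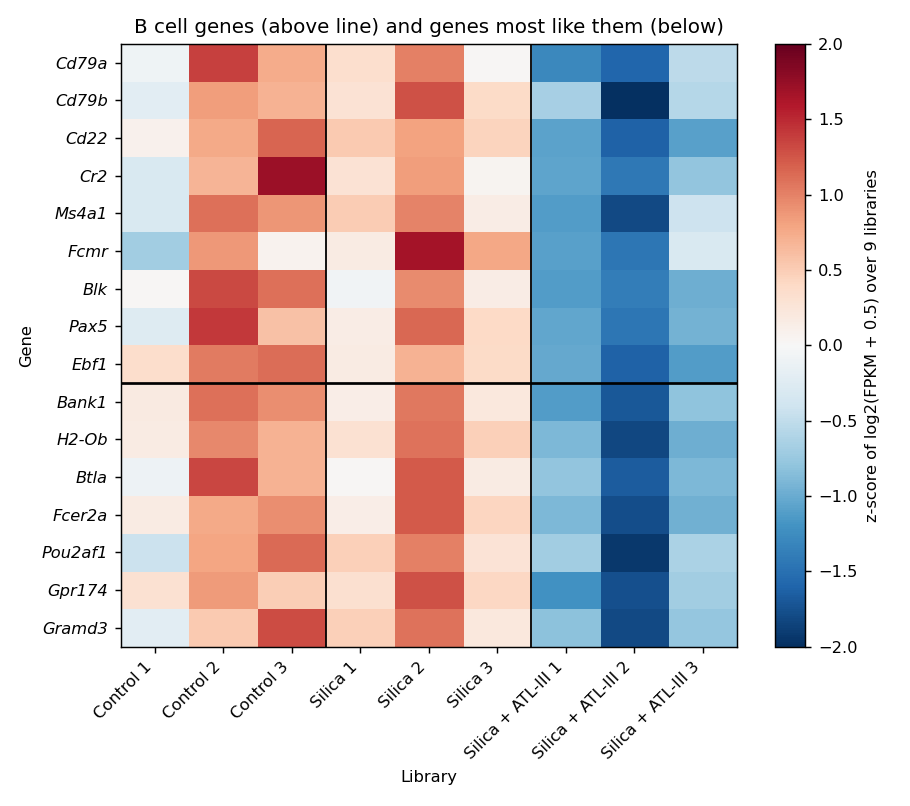
Z-scores of log2(FPKM + 0.5) over the 9 libraries, for the 9 genes (above the line) and 7 of the genes most like them (below). The Silica + ATL-III columns are the lowest 3 except for Fcmr, where Control 1 lies below Silica + ATL-III 3, and Silica + ATL-III 2 is the lowest library for each gene.

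Other genes of B cell surface and identity, from a list of 30 without the 9, gave the same direction in part. Of 26 tested, 10 were called lower and 1 higher against Silica, where 10.0% and 11.2% of all genes were, and the median log2 fold change was −0.71. Among those called lower, Fcer2a, Fcrla, Tnfrsf13c, Spib and Bank1 reached 1 FPKM in no Silica + ATL-III library. They entered through the other groups, so counts over this list are descriptions only. Fcer2a measured 2.14, 4.85 and 2.69 FPKM in Silica and 0.85, 0.27 and 0.80 in Silica + ATL-III libraries, a log2 fold change of −2.29 ± 0.40 (edgeR adjusted p = 0.00259). Bank1 was at −2.15 ± 0.42 (0.00441) and H2-Ob at −1.86 ± 0.28 (0.00114). Fcrla, an intracellular Fc receptor-like protein of B cells, was at −1.88 ± 0.35 (0.00344). Cd37, a tetraspanin of B cells and other leukocytes, was the 1 called higher, by 0.90 ± 0.24 (0.021). Without Silica + ATL-III 2 the number called lower was 6, and the number called higher was 0 without Silica 1, Silica 3 or Silica + ATL-III 3 and with limma, and 2 without Silica 2. Against Control, 13 were called lower and 3 higher (6.71% and 9.14% of all genes), and without Control 2 the numbers were 7 and 1. The number higher was also 1 without Silica + ATL-III 3 or with limma, and 0 with a scaling that takes gene length into account (TPM scaling). In Silica lungs 1 was called higher and 1 lower than in Control, where 9.11% and 7.81% of all genes were. The call higher was lost without Control 1, Control 2 or Silica 1, and the call lower without any 1 library other than Control 1 or Silica 2.

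In whole lung, genes of the B cell receptor signalling cascade did not follow the receptor genes as a group. Their list also holds genes of surface proteins, Cd81, Ptprc and Fcgr2b. Whole-lung RNA does not show in which cells they changed. All 22 listed genes were tested. Against Silica, 5 were called higher and 7 lower in Silica + ATL-III lungs, where 11.2% and 10.0% of all genes were. The median log2 fold change was 0.07. The product of the adaptor gene Blnk links the receptor to phospholipase C. Blnk went from 2.53, 1.47 and 2.02 FPKM in Silica to 0.75, 0.59 and 0.77 in treated lungs. The log2 fold change was −1.50 ± 0.25 (edgeR adjusted p = 0.00178). Unlike the 9 genes, Blnk was called higher in Silica than in Control (1.07 ± 0.24, edgeR adjusted p = 0.0148). In Silica + ATL-III against Control, Blnk was not called (−0.44 ± 0.25, edgeR adjusted p = 0.273). Rasgrp3, an exchange factor for Ras, was at 8.22, 11.85 and 10.77 against 2.87, 5.38 and 3.97 FPKM (−1.31 ± 0.19, adjusted p = 0.000963). Lyn, the Src-family kinase that B cells share with myeloid cells, rose from 23.35, 25.61 and 23.76 to 32.90, 42.56 and 40.12 FPKM (0.69 ± 0.12, edgeR adjusted p = 0.00232). Syk, Pik3cd, Ptprc and Inpp5d were also called higher. Neutrophil markers rose in the same lungs, and their part in these values was not tested. Without Silica 1 or Silica 3 the number called higher was 3. Silica alone had 8 of the 22 called higher than Control and 0 lower, where 9.11% and 7.81% of all genes were. The number higher was 4 without Control 1, 4 without Control 3, 3 without Silica 1, and 5 with TPM scaling or with limma at a pseudocount of 0.1. Against Control, 11 were called higher and 1 lower, where 9.14% and 6.71% of all genes were. The number higher was 6 without Control 1, 4 without Control 3, 7 without Silica + ATL-III 2 and 5 with TPM scaling. The number lower was 2 without Silica 1, Silica 2 or Silica + ATL-III 3, 2 in a fit of the 6 libraries alone, 3 with DESeq2, library totals or limma, and 5 with TPM scaling.

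Immunoglobulin constant region genes, transcribed most strongly in antibody-secreting cells, had 4 of 9 tested called lower against Silica and 0 higher. Over all genes, 10.0% were called lower and 11.2% higher. Ighd, the class of resting B cells, was at 9.77, 22.60 and 12.42 FPKM in Silica and 2.84, 0.82 and 5.77 in Silica + ATL-III libraries (−2.21 ± 0.51, edgeR adjusted p = 0.0103). Igha, the mucosal class, rose with silica from 3.51, 2.64 and 5.11 to 22.55, 9.45 and 18.71 FPKM (2.28 ± 0.32, adjusted p = 0.00146) and was at 4.81, 3.96 and 5.65 in treated lungs (−1.80 ± 0.31, adjusted p = 0.00242 against Silica). None of the 9 receptor and identity genes was called higher with silica, and the difference from Igha was not tested. Without Silica 1, Silica 3 or Silica + ATL-III 2 the number of constant region genes called lower was 2, and with no filter on low values it was 7. Plasma cell genes had 1 of 8 tested called lower (Sdc1, −0.60 ± 0.16) and 1 higher (Xbp1, 0.42 ± 0.10). Both counts are near the shares over all genes, and neither was stable. The number lower was 0 without Silica 1, Silica 3 or any 1 Silica + ATL-III library, 2 without any 1 Control library and 3 without Silica 2. The number higher was 0 without Silica 3 or Silica + ATL-III 2 and with TPM scaling, and 2 without Silica + ATL-III 3. Jchain, the joining chain of secreted IgA and IgM, was not called at −2.20 ± 0.73 (adjusted p = 0.0513).

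Factors that attract B cells or keep them alive had 4 of 8 tested called lower against Silica and 0 higher. Over all genes, 10.0% were called lower and 11.2% higher. Without Silica 3 the number lower was 2. Tnfsf13b, which encodes the survival factor BAFF, was at 3.91, 3.71 and 3.86 FPKM in Silica and 2.65, 2.07 and 1.90 in Silica + ATL-III libraries (−0.77 ± 0.16, edgeR adjusted p = 0.00522). The chemokine gene Cxcl12 was at −1.50 ± 0.24 (0.00155) and Ccl20 at −1.40 ± 0.36 (0.0177). In Silica against Control, 3 of the 8 were called higher and 0 lower, where 9.11% and 7.81% of all genes were. Among them were Cxcl12 (0.93 ± 0.24, edgeR adjusted p = 0.0231) and Ccl20 (2.13 ± 0.38, 0.00532). The number higher was 1 without any 1 Control library, Silica 1 or Silica 3, and with limma. In Silica + ATL-III against Control, 1 of the 8 was called lower and 0 higher, where 6.71% and 9.14% of all genes were. Cxcl12 (edgeR adjusted p = 0.132), Ccl20 (0.255) and Tnfsf13b (0.0583) were not called. The number lower was 2 without Silica 2 or Silica + ATL-III 1, and 2 with DESeq2, library totals or limma. It was also 2 in a fit of the 6 libraries alone and with replicate number as a block. With TPM scaling or no filter on low values it was 3, and the number higher was 1 without Control 3. Genes of precursor B cells, which mark development in bone marrow, were mostly too low to test, with 2 of 9 tested. Of those, Il7r, which T cells also express, was lower against Silica (−1.38 ± 0.30, edgeR adjusted p = 0.00745). Erg, which endothelium also expresses, was not called against Silica (0.51 ± 0.19, edgeR adjusted p = 0.0809). Il7r was called higher in Silica than in Control (1.29 ± 0.30, edgeR adjusted p = 0.0158). In Silica + ATL-III against Control, Il7r was not called (−0.09 ± 0.30, edgeR adjusted p = 0.868).

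**Figure D5:**
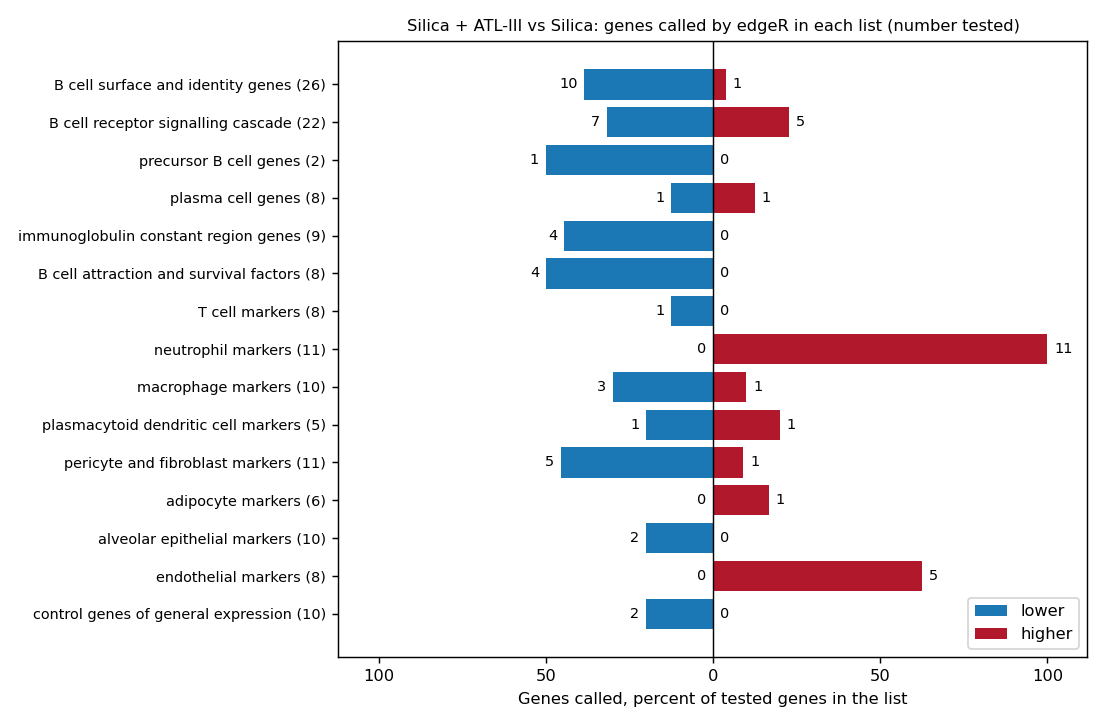
Percent of tested genes called lower (left) and higher (right) in Silica + ATL-III vs Silica (edgeR, adjusted p under 0.05) for 15 gene lists besides the 9 genes; numbers at the bars are gene counts, and the number tested stands in brackets. Neutrophil markers were called higher in 11 of 11, and B cell surface genes lower in 10 of 26. Over all tested genes, 10.0% were called lower and 11.2% higher.

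Some markers of other cells moved at the same time. Over all 15459 genes, 10.0% were called lower and 11.2% higher against Silica. A count of 1 or 2 in a short list is therefore no result about those cells. Neutrophil markers were called higher against Silica in 11 of 11 tested, with a median log2 fold change of 3.55, and their summed level was 30157 to 45614 FPKM in Silica + ATL-III libraries, 1064 to 4817 in Silica and 599 to 3904 in Control libraries. DESeq2 called 7 of the 11 and gave no adjusted p for 3. T cell markers had 1 of 8 tested called lower and 0 higher, with a median of −0.73 and summed levels of 21.9 to 53.6 against 59.9 to 80.5 FPKM. The T cell count was 0 without any 1 Silica library or Silica + ATL-III 2, and 4 without Silica + ATL-III 3, with DESeq2 or with TPM scaling. Macrophage markers had 1 called higher and 3 lower of 10, with 1 lower without Silica 1, Silica 3 or Silica + ATL-III 2 and 6 with TPM scaling. Their sums were 9286 to 12690 against 14409 to 15900 FPKM. Most of each sum was Lyz2 (means 1.09e+04 and 1.48e+04 FPKM), which was not called (−0.42 ± 0.18, edgeR adjusted p = 0.118). Plasmacytoid dendritic cell markers had 1 higher and 1 lower of 5, adipocyte markers 1 higher and 0 lower of 6, alveolar epithelial markers 0 and 2 of 10, endothelial markers 5 and 0 of 8, and genes of general expression 0 and 2 of 10. Endothelial calls were 2 without Silica 1 or Silica + ATL-III 2 and 3 without any 1 Control library, Silica 3 or Silica + ATL-III 3. Plasmacytoid dendritic cell calls were 0 higher without Silica 3, 2 higher without Silica + ATL-III 3 and 2 lower without Silica + ATL-III 1, and general expression had 1 lower without Silica + ATL-III 2. The adipocyte call was lost without Control 1, Silica 1, Silica 2, Silica + ATL-III 1 or 2. No list gene measured was at 0 in all libraries. The part of these other cells in the B cell gene values was not tested. Annotated genes on the opposite strand share exons with Cd22 (Gm29439, at most 0.49 FPKM) and with Pax5 (Gm12462, at most 0.06, and 5730488B01Rik, at most 0.17). The strand setting of the counting is not stated, so their reads may not be kept apart.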

How the data were processed

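RNA from 9 mouse lung samples (3 Control, 3 Silica, 3 Silica + ATL-III) was extracted with TRIzol, selected for poly(A) and primed with random primers, as the labels' protocols state. The submitters' processing notes list the mm10 build, HTSeq 0.6.1, HISAT2 2.0.1 and cutadapt 1.9.1 but assign them no role. The deposited table holds whole-number counts of reads per gene and, as the authors' own normalized values, FPKM. Recomputing FPKM from counts, length and column totals gave 100% of them within 0.006, so they carry no scaling beyond the total. Gene positions and strands printed here are from GENCODE M21 (GRCm38), and promoters from RefSeq.

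Counts were fitted with edgeR 4.0.16 (quasi-likelihood, TMM, 3 group means, 6 residual degrees of freedom; R 4.3.3) and adjusted by Benjamini-Hochberg over all genes tested. DESeq2 1.42.0 and limma 3.58.1 were alternatives, with other filters, scalings and libraries left out. The scripts were tested on simulated data. Named genes are the 9, the 3 with the smallest p in a list with the leading one in the other direction, and the 8 most alike, 1 of which is not reported here. The members and lists were chosen with earlier results of these data known. TPM-type scaling and the leave-one-out fits of Cr2 were added after the data were seen.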

Additional observations from a re-analysis of the deposited data

How the results depend on the processing

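With 3 libraries a group, only large differences can be detected in genes that vary as much as most of these 9. Low read counts limit Cr2 and Fcmr most. Each of the 9 genes stayed lower in Silica + ATL-III than in Silica or Control lungs in every alternative in which it was tested. The number called against Silica was 8, was 8 to 9 in the alternatives that kept all libraries, and was 5 to 8 when a library was left out, 5 without Silica + ATL-III 1. Against Control it was 7, with 6 to 8 and 5 to 7. Silica against Control it was 0 in all of these. The median log2 fold change of all genes was −0.013, −0.000 and −0.010 with TMM; library totals alone put it at −0.113, −0.021 and −0.132 (for Silica against Control, then Silica + ATL-III against Silica and against Control) and length-based TPM scaling put it at −0.201, −0.117 and −0.314. The share of calls that were higher fell from 53.8%, 52.6% and 57.6% to 17.4%, 29.8% and 12.7% with TPM scaling, to 32.7%, 45.9% and 34.3% with library totals, and to 33.6%, 45.3% and 35.2% with limma. Uncalled Silica vs Control values that changed sign were Cd22 (−0.10 with library totals, −0.05 and −0.06 with limma at a pseudocount of 0.5 and 0.1, −0.19 with TPM scaling), Ms4a1 (0.01 with edgeR's own filter) and Pax5 (−0.08 with library totals, −0.01 with limma, −0.18 with TPM scaling). With a library left out, values ran from −0.54 to 0.23 for Cd79a, −0.01 to 0.43 for Cd79b, −0.20 to 0.23 for Cd22, −0.38 to 0.30 for Ms4a1, −0.32 to 0.52 for Pax5 and −0.71 to 0.30 for Cr2; the cause was not tested. Replicate numbers did not pair the samples: same-numbered libraries correlated at −0.107 to 0.085 in their deviations from the group means, and 0 of 9 libraries correlated best with their own number. With the replicate block, 6 genes were called against Control, Cd79b losing its call (log2 fold change −1.08, adjusted p = 0.0673), and Ms4a1 in Silica vs Control was 0.10.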

Other observations

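The values below were chosen after they were seen, and their genes are in lists already counted above. Vpreb3, a B lineage gene by name, did not follow the receptor genes. It was at 11.41, 10.59 and 11.50 FPKM in Control, 12.64, 10.80 and 16.10 in Silica, and 14.08, 19.54 and 17.90 in Silica + ATL-III libraries. Vpreb3 is 1 of the 3 surface and identity genes called higher against Control (log2 fold change 0.74 ± 0.18, edgeR adjusted p = 0.0153). Against Silica it was not called (0.40 ± 0.18, adjusted p = 0.128). Silica + ATL-III 2, the lowest library for the 9 receptor and identity genes, was the highest for Vpreb3. Cxcl13, the chemokine that draws B cells into follicles, was at 37.51 FPKM in Control 3 and 31.28 in Silica + ATL-III 1, and at 3.85 to 10.75 in the other 7 libraries. Control 3 was also the highest library for Igkc (473.18 FPKM) and Ighm (112.34 FPKM).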
